A study of Mus musculus with 77 samples.

Results

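Genes of the vesicle fusion machinery were followed across RNA sequencing libraries from mouse dorsal root ganglia (DRG), the ganglia that hold the cell bodies of sensory neurons. The members were every gene whose symbol is Syt (synaptotagmin), Stx (syntaxin), Vamp (vesicle-associated membrane protein) or Cplx (complexin) followed by a number, together with Snap23, Snap25, Snap29 and Snap47. They came to 42 of the 18104 genes in the deposited tables, and 27 of them were listed in every one of the 6 tables. The RiboTag method puts a hemagglutinin (HA) tag on the ribosomal protein Rpl22 in cells that express Cre, so that an anti-HA immunoprecipitation (IP) recovers RNA bound to the ribosomes of those cells. Input is RNA of the ganglion homogenate before the pull-down, and supernatant is what the pull-down left behind.

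The 5 lines differed in the Cre driver and in the dose of the tagged allele, and all libraries came from male mice. Advillin (Adv) Cre and Isl1 Cre mark sensory neurons, Runx3 Cre marks proprioceptive neurons, Dhh Cre marks glia, and PGK Cre is active in all cells of the tissue. The Adv mice (C57BL/6) were heterozygous for both RiboTag and Cre, the PGK mice (C57BL/6) were homozygous for RiboTag and heterozygous for Cre, and the Isl1, Runx3 and Dhh mice (ICR) were homozygous for RiboTag and heterozygous for Cre. A contrast of Isl1 with Adv or PGK therefore also compares strains, and Isl1 with Adv also compares RiboTag dose. For the injury course, Isl1 IP, Isl1 input and Dhh IP libraries were made from L4 to L6 ganglia of naive mice and of mice at 4, 12 or 24 h after a sciatic nerve lesion. One naive group served all times of a course and no sham operation was among the groups, so the 3 contrasts of a course share their control libraries. Groups held 3 libraries, except for naive Dhh IP, Isl1 course input at 4, 12 and 24 h and Dhh course IP at 24 h, which held 2.

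Neurotransmitter release needs a vesicle SNARE (a VAMP) and target membrane SNAREs (a syntaxin and a SNAP) to zip into a bundle that pulls the membranes together. Synaptotagmins sit on the vesicle and many of them sense calcium, and complexins hold the partly zipped bundle and help it fire. Fusion elsewhere in the cell, between endosomes, lysosomes, the Golgi apparatus and the plasma membrane, uses other members of the same families, and glia rely on the widely expressed forms such as Snap23 and Vamp3. Sensory neurons release transmitter and neuropeptides from their central and peripheral endings and also rely on fusion to add membrane to growing axons.

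The 76 libraries with counts held between 29710143 and 54088821 counts over genes. The labelled cell types were checked against marker genes, as CPM (counts per 1000000 counts of the library) summed over each list. All 16 sensory neuron markers were listed in the naive pull-downs and summed to 34803 to 37258 CPM in Isl1 and to 1414 to 2047 CPM in Dhh. The 13 myelinating Schwann cell markers summed to 961 to 1132 CPM in Isl1 and to 48823 to 50149 CPM in Dhh. Proprioceptor markers, 7 genes, lay at 3396 to 4382 CPM in Runx3 against 505 to 586 CPM in Isl1, and 10 nociceptor markers lay at 547 to 559 CPM against 5649 to 7386 CPM. The labels of the Dhh injury course name sensory neurons as its cell type, but in those libraries the sensory neuron list stayed between 1026 and 1372 CPM and the Schwann cell list between 26748 and 37384 CPM. These libraries are therefore called Dhh pull-downs throughout. In such bulk samples fewer cells of a type and less RNA per cell cannot be told apart. Nothing in the labels ties the libraries of a group to different animals. Every p-value therefore reflects variation among the sequenced libraries, and that variation may be technical.

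In the naive Isl1 pull-down the fusion genes took 12394 ± 922 CPM together (SD, n = 3). Levels of different genes were compared as FPKM, computed here as CPM over transcript length in kilobases, which allows for transcript length. Snap25, the SNAP of the synaptic bundle, stood first at 1240 ± 145 FPKM (SD, n = 3). Cplx1, the main complexin of sensory neurons here, followed at 906 ± 118 FPKM, and Vamp2, the synaptobrevin of most central synapses, at 618 ± 52 FPKM. Syt11, a synaptotagmin that does not bind calcium, came next at 424 ± 36 FPKM, and Vamp1, the synaptobrevin typical of spinal cord and neuromuscular junctions, reached 374 ± 58. These neighbours did not all separate, since Syt11 and Vamp1 lay within their spread of each other, as did Syt7 (153 ± 34 FPKM) and Syt4 (143 ± 27 FPKM). The widely expressed SNAREs were at the other end, with Vamp3 at 5.31 ± 1.37 FPKM, Vamp5 at 1.33 ± 0.40 FPKM and Snap23 at 0.471 ± 0.180 FPKM. Syt10 and Syt14 were lowest, at 0.102 and 0.056 FPKM. Syt10, Syt14, Syt16 and Syt17 did not pass the level filter, so that 33 of the 37 members listed in the naive IP table were tested, and Stx3, Stx7, Stx8, Stx11 and Stx18 were not listed there.

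**Figure D1:**
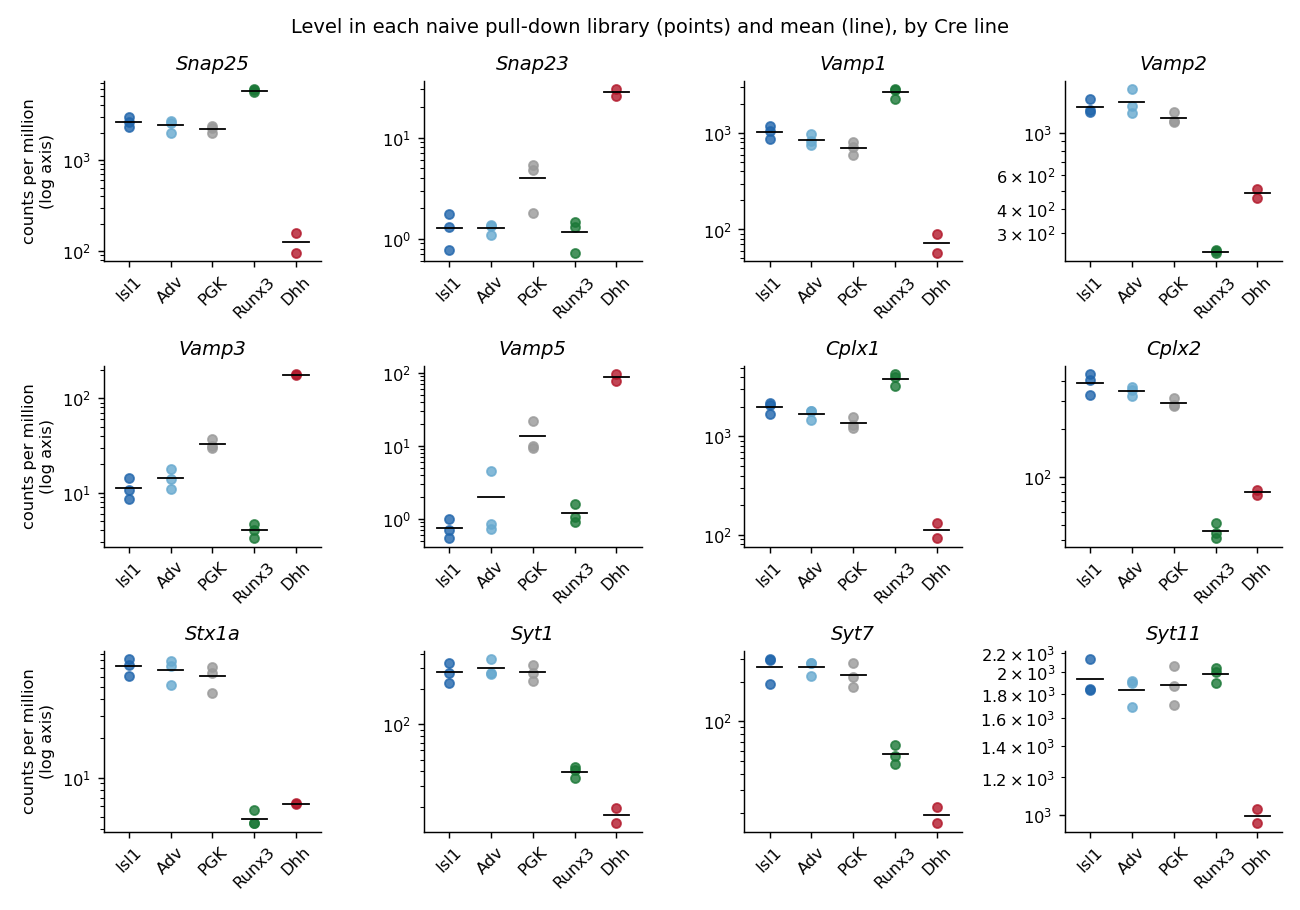
Level of 12 fusion genes in the naive pull-downs of the 5 lines. Points are single libraries (CPM on a log axis), short lines are group means and colours mark the lines. Snap23, Vamp3 and Vamp5 are highest in Dhh libraries, and Snap25, Vamp1 and Cplx1 are highest in Runx3 libraries.

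Promoters are shown for the complexin pair, Vamp1 and Snap23, chosen after their values were seen, because they differed between the pull-downs and have windows in the RefSeq table. Each runs from 250 bases before to 50 bases after a RefSeq transcript start on GRCm38.p6, 5′ to 3′ on the gene's strand. Capitals mark matches to motifs searched on both strands. The GC box has the letters GGGCGG. The CCAAT box has the letters of its name. The core of a cyclic AMP response element has the letters TGACG, which also lie inside the full element named below. Cplx1 is at chr5:108549978-108550277 on the minus strand, Cplx2 at chr13:54302306-54302605 on the plus strand, Vamp1 at chr6:125215331-125215630 on the plus strand and Snap23 at chr2:120567421-120567720 on the plus strand. The start used for Cplx1 and Vamp1 is the 5′ end of the gene's RefSeq span, whereas that of Snap23 lies 16 bases and that of Cplx2 592 bases inside it.
Cplx1: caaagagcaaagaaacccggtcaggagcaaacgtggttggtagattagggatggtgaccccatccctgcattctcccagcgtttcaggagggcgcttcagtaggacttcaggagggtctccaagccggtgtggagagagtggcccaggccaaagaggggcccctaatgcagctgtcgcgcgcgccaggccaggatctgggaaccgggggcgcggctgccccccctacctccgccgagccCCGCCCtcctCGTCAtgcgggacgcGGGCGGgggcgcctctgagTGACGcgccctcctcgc
Cplx2: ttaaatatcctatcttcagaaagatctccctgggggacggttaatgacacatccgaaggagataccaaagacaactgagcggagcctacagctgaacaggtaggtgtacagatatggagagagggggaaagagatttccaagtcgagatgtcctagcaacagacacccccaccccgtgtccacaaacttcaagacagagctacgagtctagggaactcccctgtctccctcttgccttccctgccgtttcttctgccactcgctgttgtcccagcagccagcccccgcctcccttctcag
Vamp1: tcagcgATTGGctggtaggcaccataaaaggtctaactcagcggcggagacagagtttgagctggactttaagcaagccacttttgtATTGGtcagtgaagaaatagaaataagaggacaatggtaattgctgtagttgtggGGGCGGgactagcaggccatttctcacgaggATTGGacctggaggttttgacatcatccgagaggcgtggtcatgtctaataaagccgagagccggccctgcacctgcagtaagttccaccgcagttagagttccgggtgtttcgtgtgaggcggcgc
Snap23: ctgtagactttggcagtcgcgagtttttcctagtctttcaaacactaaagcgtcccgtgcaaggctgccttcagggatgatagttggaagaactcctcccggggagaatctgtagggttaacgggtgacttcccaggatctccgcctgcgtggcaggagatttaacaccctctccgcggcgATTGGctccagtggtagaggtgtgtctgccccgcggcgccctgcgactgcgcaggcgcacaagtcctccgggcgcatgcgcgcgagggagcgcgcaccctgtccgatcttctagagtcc
The Cplx1 window held 24 CpG dinucleotides, 2 GC boxes and 2 TGACG cores, whereas the Cplx2 window held 9 CpG dinucleotides and none of the motifs searched. The Vamp1 window held 14 CpG dinucleotides, 1 GC box and 3 CCAAT boxes, and the Snap23 window held 25 CpG dinucleotides and 1 CCAAT box. Promoters were found for 32 member genes, 41 windows in all, with a median of 19 CpG dinucleotides against 7 over all 32851 windows. A GC box was in 73.2% of the member windows and 35.7% of all windows, a CCAAT box in 34.1% and 37.4%, and TGACG in 24.4% and 20.8%. The full element TGACGTCA was in 0% of member windows and 1.8% of all, and TGANTCA, the AP-1 motif, in 4.9% and 7.8%. A match is a description of letters and was not tested as a binding site.

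Glia and sensory neurons were compared first, as Dhh against Isl1 naive pull-downs, which asks which fusion genes are on the ribosomes of each cell type. Nearly the whole neuronal release machinery was lower in Dhh, with Snap25, Cplx1, Vamp1, Stx1a and Syt1 at 4.82% to 8.77% of the Isl1 level. In the opposite direction Snap23, Vamp3, Vamp5 and Vamp8 rose, the SNAREs that cells outside the nervous system use at the plasma membrane and on endosomes. Of the 33 members tested, 25 were lower and 6 higher at a false discovery rate (FDR) below 0.1, which is 93.9%, beside 84.8% called over all 10521 genes. The share called is near the background, and the members' median log2 change was -2.18 beside -0.05 for all genes.

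**Figure D2:**
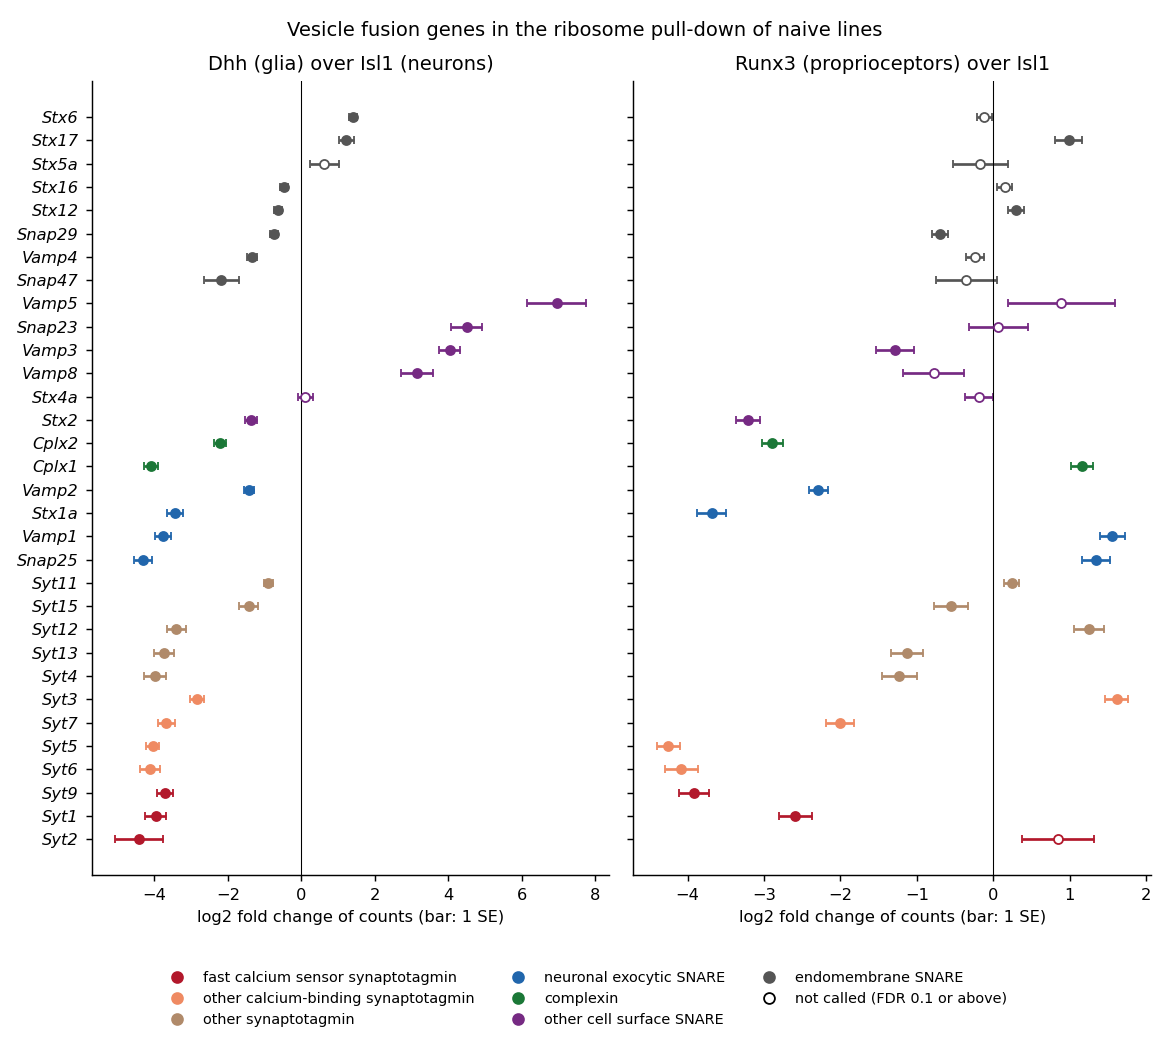
Log2 change of fusion genes in naive pull-downs, Dhh against Isl1 and Runx3 against Isl1. Points are edgeR estimates coloured by role, bars are standard errors and filled points have an FDR below 0.1. Vamp5, Snap23, Vamp3 and Vamp8 lie far to the higher side in Dhh, and Vamp1 and Vamp2 lie on opposite sides in Runx3.

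Among the SNAREs of the synaptic bundle, Snap25 gave 2316, 2630 and 2928 CPM in the Isl1 libraries and 158 and 95.2 CPM in the Dhh libraries. The groups did not overlap, and the log2 difference was -4.32 ± 0.25 (SE, FDR 1.162e-08). Vamp1 gave 871, 1053 and 1190 CPM in Isl1 and 89.8 and 56.7 CPM in Dhh (log2 -3.77 ± 0.21). Stx1a, a plasma membrane syntaxin of synapses, gave 61.1, 73.3 and 81.1 CPM against 6.40 and 6.20 CPM (log2 -3.45 ± 0.22). Vamp2 kept more of its level, with 1493, 1282 and 1310 CPM in Isl1 and 511 and 458 CPM in Dhh (log2 -1.43 ± 0.14, FDR 1.162e-06). Of the complexins, Cplx1 gave 1688, 2091 and 2170 CPM in Isl1 and 132 and 91.9 CPM in Dhh (log2 -4.09 ± 0.19), and Cplx2 gave 326, 405 and 439 CPM against 83.1 and 77.2 CPM (log2 -2.22 ± 0.16). All of these genes were lower in Dhh, and in none of them did the libraries of the groups overlap.

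All 12 synaptotagmins tested were lower in Dhh than in Isl1. Among the fast calcium sensors, Syt2 had log2 -4.42 ± 0.65, Syt1 -3.97 ± 0.28 and Syt9 -3.72. Syt7, a slower sensor with high calcium affinity that also serves lysosome exocytosis, had log2 -3.68 ± 0.23. Syt6 (-4.12), Syt5 (-4.05) and Syt3 (-2.84), other calcium-binding forms, were lower as well. Syt4, found on dense-core vesicles, had log2 -3.98 ± 0.30, and Syt13 and Syt12 had -3.74 and -3.41. Syt15 had log2 -1.43. Syt11 moved least of the family and gave 1836, 2129 and 1849 CPM in Isl1 against 1031 and 960 CPM in Dhh (log2 -0.90 ± 0.12, FDR 1.482e-05), so it was the most abundant member in Dhh libraries by CPM.

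Higher in Dhh were 4 of the 6 tested SNAREs of the cell surface outside synapses. Snap23, the widely expressed relative of Snap25, gave 0.781, 1.31 and 1.76 CPM in Isl1 and 25.9 and 30.1 CPM in Dhh (log2 4.51 ± 0.43, FDR 9.227e-07). It passed the level filter through the Dhh libraries, since its mean over the naive pull-downs of the other lines was 0.709 FPKM, below the filter of 1 FPKM. Vamp3 (cellubrevin), a vesicle SNARE of recycling endosomes, gave 14.4, 8.60 and 10.8 CPM against 179 and 177 CPM (log2 4.04 ± 0.28, FDR 6.097e-08). Vamp5, first described in muscle, gave 0.976, 0.536 and 0.699 CPM against 95.8 and 78.5 CPM (log2 6.95 ± 0.80, FDR 5.471e-06). Vamp8, a SNARE of late endosomes and of secretory granules, gave 19.9, 9.61 and 10.9 CPM against 125 and 103 CPM (log2 3.14 ± 0.44). Its level was lower in the naive pull-downs of the injury course, though in the same order. There it gave 4.05, 4.75 and 4.46 CPM in Isl1 and 18.2, 14.5 and 23.3 CPM in Dhh. In the line comparison no Dhh library of these 4 genes overlapped an Isl1 library. Markers of some other non-neuronal cells were also higher in the Dhh libraries. The 6 fibroblast markers lay at 709 to 1016 CPM against 46.3 to 49.1 CPM in Isl1. The 6 endothelial markers lay at 68.2 to 72.3 CPM against 4.38 to 6.08 CPM. Mast cell, mural and erythrocyte markers stood at 513%, 360% and 126% of their Isl1 level. Macrophage and neutrophil markers stood lower, at 82.6% and 85.4%. The part of all these cells in the 4 genes was not tested. Vamp5 and Vamp8 are also neighbours in the genome, at chr6:72368049-72380468 and chr6:72385221-72390667 on GRCm38.p6. Stx2, a plasma membrane syntaxin, was lower in Dhh (log2 -1.38), and Stx4a, a plasma membrane syntaxin of many cell types, was not called (0.11, FDR 0.638).

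SNAREs of internal membranes were split. Stx6, of the trans-Golgi network, and Stx17, of autophagosomes, were higher in Dhh with log2 changes of 1.42 ± 0.11 and 1.23 ± 0.20. Snap47, Vamp4 and Stx16 (both of the trans-Golgi network), Snap29 and Stx12 (of endosomes) were lower, with -2.18, -1.35, -0.48, -0.74 and -0.63. Stx6 and Stx12 had the opposite order in the naive pull-downs of the injury course. Stx6 averaged 38.3 CPM in Dhh and 46.8 CPM in Isl1 there, and Stx12 averaged 342 and 301 CPM. Stx17, Snap47, Vamp4, Stx16 and Snap29 kept their direction there, and no test was made between the naive groups of the 2 courses. Stx5a, of the Golgi apparatus, was not called (0.62, FDR 0.163). As a share of their Isl1 level, the Dhh libraries held 4.83% of the sensory neuron marker list. Snap25 stood at 4.82%, Cplx1 at 5.64%, Syt4 at 6.09%, Syt1 at 6.12%, Vamp1 at 7.06% and Stx1a at 8.77%. Cplx2 stood at 20.6%, Vamp2 at 35.6%, Syt11 at 51.4% and Stx16 at 68.8%. Of the 25 lower members, 23 lay above the marker share and 8 lay at over 5 times it, and only Snap25 and Syt2 were at or under it. The part of neuronal RNA in these values was not tested beyond that share. All 31 calls of this contrast held whichever library of the contrast was left out.

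Proprioceptive neurons were then compared with all sensory neurons, as Runx3 against Isl1 naive pull-downs. Members of the same pair moved in opposite directions. Snap25, Vamp1 and Cplx1 were higher in Runx3, and Vamp2, Cplx2, Stx1a and Syt1 were lower. Of the 33 members tested, 8 were higher and 14 lower, which is 66.7%, beside 55.7% called over all genes. The members' median log2 change was -0.24 beside 0.06 for all genes.

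Snap25 gave 5974, 5535 and 5796 CPM in the Runx3 libraries against 2316, 2630 and 2928 CPM in Isl1, without overlap (log2 1.34 ± 0.18, FDR 7.408e-05). Vamp1 gave 2856, 2278 and 2824 CPM against 871, 1053 and 1190 CPM (log2 1.56 ± 0.16, FDR 8.732e-06). Vamp2 went the other way, with 237, 244 and 243 CPM in Runx3 against 1493, 1282 and 1310 CPM in Isl1 (log2 -2.29 ± 0.12, FDR 5.005e-08). On the FPKM scale Vamp1 made up 89.6 ± 1.3% of the Vamp1 and Vamp2 total in Runx3, 37.7 ± 5.4% in Isl1 (SD, n = 3 each) and 10.6% in Dhh (n = 2). The complexin pair moved in the same sense. Cplx1 gave 4002, 3266 and 4272 CPM in Runx3 (log2 1.16 ± 0.14, FDR 3.818e-05), and Cplx2 gave 44.7, 41.1 and 51.1 CPM (log2 -2.89 ± 0.14, FDR 2.582e-08), with no overlap with Isl1 in either gene. Cplx1 thus took 99.5 ± 0.03% of the complexin FPKM in Runx3 and 92.0 ± 0.19% in Isl1. Stx1a gave 5.58, 4.50 and 4.43 CPM in Runx3 (log2 -3.69 ± 0.19, FDR 2.884e-08), below both Dhh libraries and every Isl1 library.

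**Figure D3:**
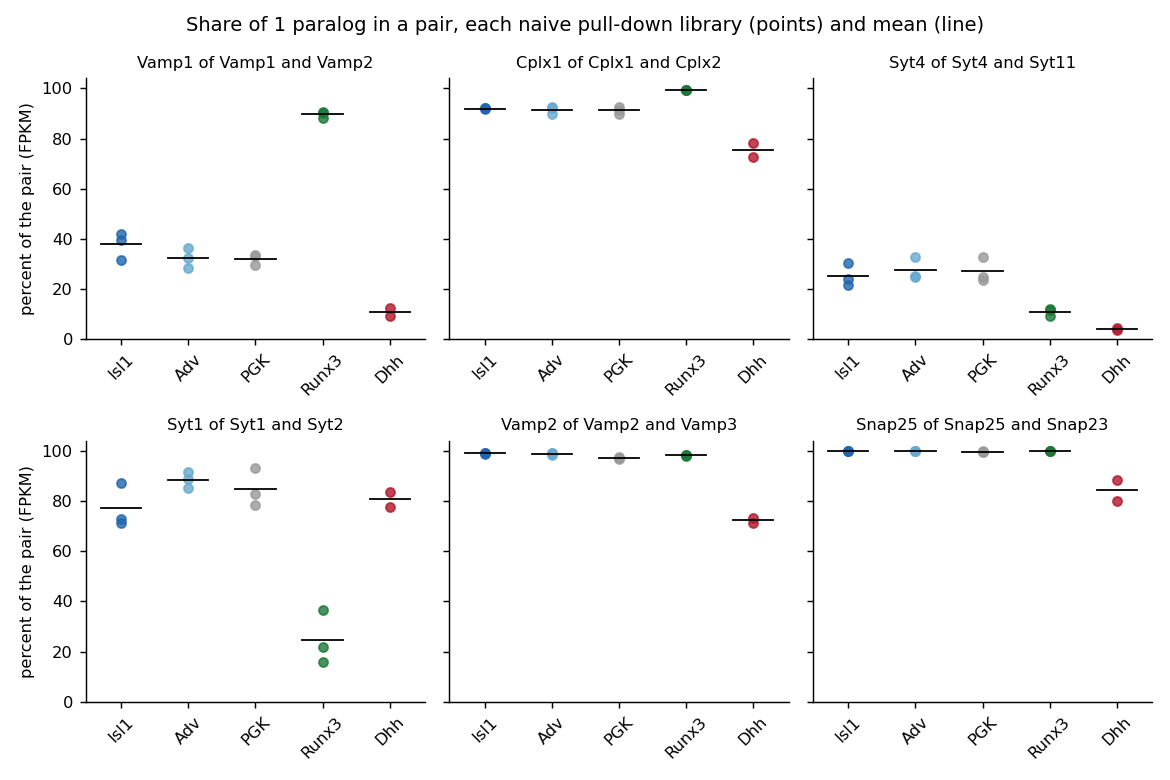
Share of 1 paralog in the FPKM of a pair, in percent, in each naive IP library of the 5 lines. Points are libraries and short lines are group means. Vamp1 makes up 89.6% of its pair with Vamp2 in Runx3 and 37.7% in Isl1, and Syt1 makes up 24.7% of its pair with Syt2 in Runx3 and 77.1% in Isl1.

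The synaptotagmins were split as well. Syt1 gave 41.0, 43.6 and 34.7 CPM in Runx3 against 224, 336 and 273 CPM in Isl1 (log2 -2.59 ± 0.22, FDR 1.521e-06). Syt2, the fast sensor of hindbrain and spinal cord synapses, gave 156, 53.9 and 89.0 CPM against 23.7, 88.1 and 79.1 CPM, which overlap, and was not called (0.84 ± 0.47, FDR 0.16). The largest decreases were those of Syt5, Syt6 and Syt9, with log2 changes of -4.25 ± 0.15, -4.08 ± 0.22 and -3.92 ± 0.19. Syt7 (-2.01 ± 0.18), Syt4 (-1.23 ± 0.23), Syt13 (-1.13) and Syt15 (-0.56, FDR 0.0558) were lower too. Syt3 was the calcium-binding form that rose, with 180, 148 and 169 CPM against 52.7, 65.4 and 69.4 CPM (log2 1.61 ± 0.14, FDR 2.471e-06). Syt12 had log2 1.25 ± 0.20. Syt11 was higher by 0.24 (FDR 0.0677) although the groups overlapped. Of the other SNAREs, Stx2 (-3.21 ± 0.16), Vamp3 (-1.28 ± 0.25) and Snap29 (-0.70) were lower, Stx17 (0.99 ± 0.18) and Stx12 (0.30) were higher, and Snap23 was not called (0.07, FDR 0.905).

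Several small Runx3 changes rested on single libraries. Syt11 lost its call without Isl1 library 1 (FDR 0.146) or 3 (0.308) and without Runx3 library 1 (0.107) or 2 (0.506). Stx12 lost it without Isl1 library 2 (FDR 0.11) or Runx3 library 3 (0.102), and Syt15 without Isl1 library 2 (0.133) or 3 (0.102) or Runx3 library 1 (0.144) or 3 (0.178). The Runx3 libraries also held 64.1 to 223 CPM of 5 neutrophil markers and 37.1 to 62.7 CPM of 8 macrophage markers, against 4.10 to 9.60 and 7.54 to 23.5 CPM in Isl1. The 1 erythrocyte marker listed of 4 lay at 4.09 to 17.4 CPM in Runx3 and 0.425 to 0.775 CPM in Isl1, and the part of these cells in the Runx3 values was not tested.

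Sensory neurons were also compared with all cells of the ganglion. Isl1 against PGK had 4 members higher and 5 lower of 33, beside 20.2% of all genes called. The SNAREs that were high in Dhh were lower in Isl1 than in PGK, namely Vamp5 (-4.21 ± 0.71, FDR 0.0009497), Snap23 (-1.55 ± 0.37), Vamp3 (-1.49 ± 0.25) and Vamp8 (-1.29 ± 0.39), along with Syt15 (-0.65 ± 0.22), which passed the level filter through the PGK libraries (0.937 FPKM on average without them). PGK libraries gave 9.29, 22.1 and 10.0 CPM of Vamp5 and 30.0, 36.9 and 31.6 CPM of Vamp3, all above the Isl1 libraries. The Schwann cell list summed to 4068 to 4714 CPM in PGK, the fibroblast list to 468 to 1014 CPM, the endothelial list to 88.5 to 142 CPM and the macrophage list to 106 to 117 CPM. The Schwann cell and macrophage lists were at 961 to 1132 and 7.54 to 23.5 CPM in Isl1, and their part in these values was not tested. Vamp1 (0.61 ± 0.16), Cplx1 (0.60 ± 0.14), Syt6 (0.54 ± 0.19) and Cplx2 (0.47 ± 0.13) were higher in Isl1. Snap25 (0.30 ± 0.18), Vamp2 (0.26 ± 0.12), Stx1a (0.32 ± 0.17), Syt1 (0.05 ± 0.21), Syt2 (0.98 ± 0.47), Syt4 (-0.04 ± 0.22), Syt7 (0.28 ± 0.18) and Syt11 (0.10 ± 0.10) were not called. Over all genes 26.17% of the calls were higher in Isl1, and 36.71% with the size factors of DESeq2 or 43.22% with its own test. Without Isl1 library 3 the count of called members fell from 9 to 5.

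Isl1 was then set against Adv, the other driver for sensory neurons. Isl1 against Adv called 0 of the 33 members in edgeR, beside 0% of all genes, with 3 members at an unadjusted p under 0.05 and 0 members called by DESeq2. Syt2 differed by 1.20 ± 0.47 (FDR 0.412), with overlapping groups, and Vamp5 by -1.48 ± 0.69 (FDR 0.418). For Snap25 the log2 difference was 0.09 ± 0.18, for Vamp1 0.23 ± 0.16, for Vamp2 -0.11 ± 0.12, for Cplx1 0.19 ± 0.14, for Cplx2 0.13 ± 0.13 and for Vamp3 -0.39 ± 0.24. For Syt1, Syt4, Syt7 and Syt11 it was -0.16 ± 0.21, -0.13 ± 0.22, -0.03 ± 0.18 and 0.04 ± 0.10, and for Stx1a and Snap23 0.05 ± 0.17 and -0.01 ± 0.38. A missed threshold does not show that the lines are alike.

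Each naive pull-down was also set against its own input, which shows what the pull-down gained or lost from the whole ganglion. The SNAREs that were high in Dhh were depleted from the neuronal pull-downs. In Isl1, Vamp5 (-4.02 ± 0.56), Snap23 (-2.03 ± 0.30), Vamp3 (-1.51 ± 0.21) and Vamp8 (-1.43 ± 0.37) fell, and 9 members were higher, led by Syt2 (1.37 ± 0.43) and Stx2 (0.53 ± 0.22). The 13 calls in Isl1 stood beside 32% of all genes, and the members' median was 0.19 beside 0.04 for all genes. Syt7 (0.46 ± 0.14), Cplx2 (0.43 ± 0.13) and Syt11 (0.40 ± 0.10) were among the higher members, and Snap25 (0.14 ± 0.17), Vamp1 (0.19 ± 0.21), Vamp2 (-0.05 ± 0.10) and Syt1 (0.10 ± 0.23) were not called. In Adv, 14 members were higher and 4 lower, beside 47.4% of all genes, and the lower members were again Vamp5 (-3.08), Snap23 (-1.95), Vamp3 (-1.59) and Vamp8 (-1.54). The Isl1 count fell to 6 without Isl1 IP library 2, with 2 higher and 4 lower. It fell to 8 without IP library 3 or input library 1, with 4 higher and 4 lower each time. The calls lost were thus among the 9 higher members.

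Runx3 IP against input had 11 members higher and 18 lower, beside 73.4% of all genes. Syt2 (3.03 ± 0.45), Vamp1 (2.11 ± 0.22), Syt12 (1.95 ± 0.18), Syt3 (1.79 ± 0.13), Cplx1 (1.58 ± 0.15) and Snap25 (1.31 ± 0.17) were among the most enriched. The most depleted were Syt5 (-4.33 ± 0.14), Vamp5 (-3.71 ± 0.54), Syt6 (-3.67 ± 0.20), Syt9 (-3.64 ± 0.16), Stx1a (-3.26 ± 0.19) and Syt1 (-2.94 ± 0.25). Here Syt2, which was not called against Isl1, was above the input of its own line in every library. Syt2 gave 156, 53.9 and 89.0 CPM in Runx3 IP and 20.9, 12.3 and 8.75 CPM in the input. Dhh IP against input had 7 members higher and 23 lower, beside 85.1% of all genes, led by Snap23 (2.52 ± 0.31), Vamp3 (2.49 ± 0.23) and Vamp5 (2.16 ± 0.51) on the higher side. On the lower side stood Snap25 (-4.36 ± 0.23), Syt1 (-4.34 ± 0.32), Syt4 (-4.05 ± 0.34) and Syt5 (-4.02 ± 0.16).

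PGK IP against input called 3 members, beside 19% of all genes, with Syt2 (1.25 ± 0.43) and Syt7 (0.40 ± 0.14) higher and Vamp2 (-0.42 ± 0.10) lower. With the replicate number as a block, which pairs each IP with its own input, 11 members were called in PGK. The count was 8 without PGK IP library 2 and 1 without IP library 3 or input library 2. After the pull-down the supernatants still held the fusion genes at 11190 to 12286 CPM as group means, against 10778 to 11300 CPM in the inputs. Vamp3 in the Dhh supernatants was 30.2, 33.6 and 26.4 CPM, beside 36.8, 33.2 and 31.4 CPM in the Dhh inputs.

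After sciatic nerve injury the fusion genes summed to between 11876 and 12042 CPM as group means at all times of the Isl1 IP course. Of 35 members tested, 1 was called lower at 4 h, 1 higher at 12 h, and 2 higher and 2 lower at 24 h, beside 3.13%, 5.14% and 18.6% of all 11301 genes. The members' shares were 2.86%, 2.86% and 11.4%, near the share over all genes at 4 and 12 h and below it at 24 h. The member that changed most was Stx11, a syntaxin without a membrane anchor that is known from cytotoxic granules of immune cells. A list of 6 injury genes rose from 162 to 169 CPM in naive libraries to 869 to 1438 CPM at 24 h.

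Stx11 gave 4.58, 4.78 and 4.36 CPM in naive Isl1 IP libraries and 4.68, 5.23 and 4.96 CPM at 4 h. It gave 7.32, 8.61 and 6.03 CPM at 12 h and 14.4, 12.9 and 11.3 CPM at 24 h, each above every naive library. The log2 change was 0.70 ± 0.14 at 12 h (FDR 0.02462) and 1.52 ± 0.14 at 24 h (FDR 1.325e-05). Without naive library 1 or 3 the 12 h call was lost (FDR 0.119 and 0.109). Stx11 rose in the whole ganglion as well, from 5.07, 5.82 and 5.75 CPM in naive input to 14.3 and 13.4 CPM at 24 h (log2 1.36 ± 0.15, FDR 0.0004926). Macrophage markers, 3 listed of 9, lay at 4.89 to 5.48 CPM in naive Isl1 IP and 3.15 to 4.84 CPM at 24 h, and the 7 listed in input lay at 51.4 to 77.9 and 60.2 to 79.7 CPM. Neutrophil markers, 2 listed of 5, lay at 1.59 to 5.53 CPM in naive Isl1 IP and 3.10 to 8.53 CPM at 24 h, and their part in the Stx11 values was not tested. Its promoter, chr10:12964210-12964509 on the minus strand of GRCm38.p6, is shown because Stx11 was the member with the largest response in both cell types, with capitals as above. The transcript start used lies 239 bases inside the gene's RefSeq span.
Stx11: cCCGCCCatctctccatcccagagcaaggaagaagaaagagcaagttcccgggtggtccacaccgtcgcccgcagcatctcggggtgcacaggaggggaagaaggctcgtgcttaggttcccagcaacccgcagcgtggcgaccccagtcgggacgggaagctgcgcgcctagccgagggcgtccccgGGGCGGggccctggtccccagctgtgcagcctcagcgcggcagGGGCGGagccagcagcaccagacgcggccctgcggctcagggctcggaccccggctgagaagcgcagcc
The window held 27 CpG dinucleotides, 3 GC boxes and none of the other motifs searched.

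Syt4 was the other member that rose at 24 h. It gave 554, 516 and 545 CPM in naive Isl1 IP and 774, 767 and 814 CPM at 24 h, without overlap (log2 0.57 ± 0.05, FDR 5.264e-06). In input it went from 481, 537 and 538 CPM to 674 and 678 CPM (log2 0.42 ± 0.07, FDR 0.007161). Syt6 fell from 152, 154 and 132 CPM to 107, 114 and 126 CPM (log2 -0.31 ± 0.08, FDR 0.01744). Stx8, a syntaxin of late endosomes, fell from 36.3, 40.0 and 36.8 CPM to 31.2, 30.5 and 30.8 CPM (log2 -0.26 ± 0.08, FDR 0.05117). In input both had values of similar size that were not called, -0.27 ± 0.09 (FDR 0.117) for Syt6 and -0.25 ± 0.09 (FDR 0.146) for Stx8, and the pull-down minus input difference was -0.02 ± 0.12 for Syt6. The Stx8 call was lost without the 24 h library 3 (FDR 0.1025) or naive library 2 (0.2) or 3 (0.106). At 4 h the call was Stx2, from 123, 127 and 133 CPM to 111, 105 and 114 CPM (log2 -0.21 ± 0.05, FDR 0.0757), and it was lost whichever of the 6 libraries was left out. Without the 24 h library 2 the 24 h count rose from 4 to 11.

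The core genes of transmitter release were not called at 24 h. The log2 change was -0.05 ± 0.05 for Snap25, 0.01 ± 0.07 for Vamp1, 0.07 ± 0.07 for Vamp2, 0.02 ± 0.06 for Cplx1 and -0.05 ± 0.07 for Cplx2. It was 0.04 ± 0.10 for Syt1, -0.07 ± 0.16 for Syt2, 0.08 ± 0.06 for Syt11, -0.01 ± 0.12 for Stx1a and 0.17 ± 0.14 for Vamp3. Syt7 had -0.21 ± 0.08 with an FDR of 0.114. Snap23 was not listed in this table.

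**Figure D4:**
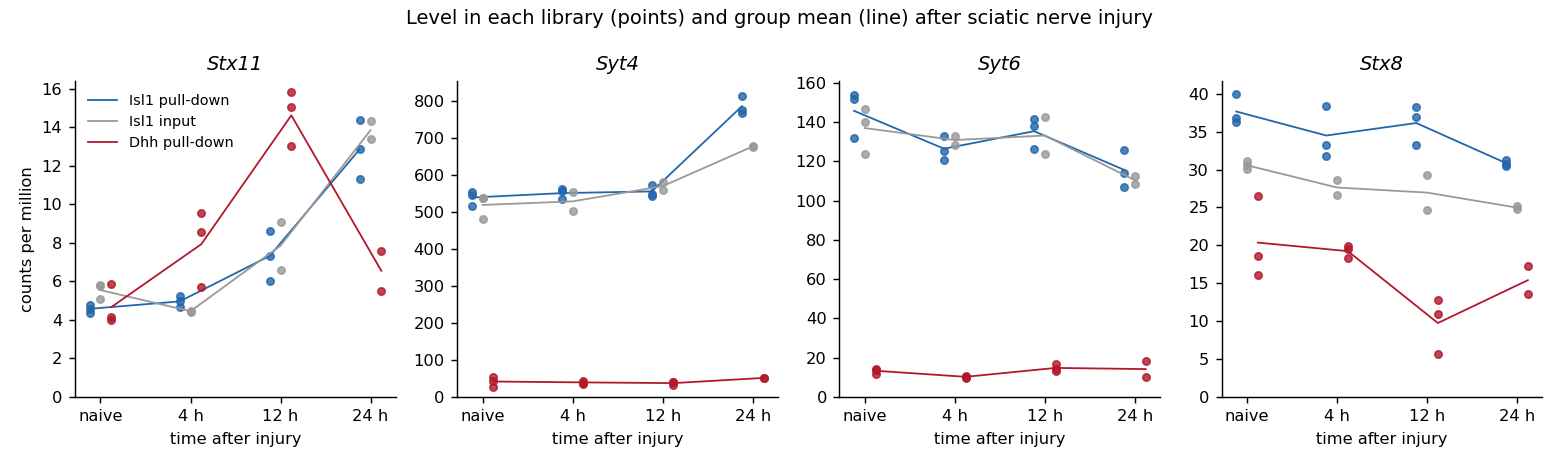
CPM of Stx11, Syt4, Syt6 and Stx8 in each library of the injury courses, naive and at 4, 12 and 24 h after sciatic nerve lesion. Points are libraries, lines join group means and colours mark Isl1 IP, Isl1 input and Dhh IP. Stx11 climbs to 11.3 to 14.4 CPM at 24 h in Isl1 IP, and in Dhh IP it peaks at 13.0 to 15.8 CPM at 12 h.

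In the Isl1 input, 0 of the 37 members tested were called at 4 h by edgeR, beside 1.28% of all genes, with 3 members at an unadjusted p under 0.05 and 0 called by DESeq2. At 12 h Stx11 alone was called (0.55 ± 0.16, FDR 0.09926), beside 4.48% of all genes, and it lost the call whichever of the 5 libraries was left out, with FDRs from 0.176 to 0.378. At 24 h Stx11 and Syt4 were called, beside 8.42% of all genes. Snap25 (-0.07 ± 0.06), Vamp1 (0.03 ± 0.08), Vamp2 (0.00 ± 0.07), Cplx1 (0.08 ± 0.07), Snap23 (0.23 ± 0.14) and Vamp3 (-0.02 ± 0.10) were not called in input at 24 h. The responses of pull-down and input were compared in 1 model. The difference called 0 of 35 members at 4, 12 and 24 h in edgeR, beside 0.0265%, 0.0177% and 0% of all genes, with 0, 0 and 1 members at an unadjusted p under 0.05 and 0 called by DESeq2. For Stx11 at 24 h the difference of the log2 changes was 0.17 ± 0.20.

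In the Dhh pull-down members were called at 12 h and at neither of the other times. It called 0 of 34 members at 4 h in edgeR, beside 1.18% of all genes, with 5 at an unadjusted p under 0.05 and 2 called by DESeq2. At 12 h it called 6 higher and 4 lower, which is 29.4%, beside 32.9% of all 11000 genes. At 24 h it called 0, beside 2.7%, with 1 at an unadjusted p under 0.05 and 0 called by DESeq2. The share called at 12 h was near the background.

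Stx11 gave 3.97, 4.16 and 5.85 CPM in naive Dhh libraries and 15.0, 15.8 and 13.0 CPM at 12 h (log2 1.84 ± 0.26, FDR 0.0001428), and at 24 h it gave 5.50 and 7.60 CPM. The 2 listed macrophage markers summed to 0.471 to 1.61 CPM in naive Dhh libraries and to 4.43 to 6.91 CPM at 12 h, and their part in the Stx11 value was not tested. Stx3, a plasma membrane syntaxin of polarized cells and ribbon synapses, went from 6.55, 6.35 and 8.36 CPM to 10.7, 12.4 and 17.2 CPM (log2 1.13 ± 0.26, FDR 0.004821). For both genes every 12 h library was above every naive library. Stx5a rose by 0.60 ± 0.16, Vamp3 by 0.51 ± 0.14 with groups that overlap in CPM, Vamp1 by 0.46 ± 0.16 and Snap25 by 0.45 ± 0.13 on the log2 scale. Snap25 gave 263, 265 and 261 CPM in naive libraries and 291, 300 and 348 CPM at 12 h, while the sensory neuron marker list gave 1026 to 1278 CPM and 1227 to 1372 CPM. The part of neuronal RNA in the Snap25 and Vamp1 values was not tested.

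Lower at 12 h in Dhh were Stx8, Stx2, Stx17 and Stx6. Stx8 went from 18.6, 16.0 and 26.5 CPM to 10.9, 12.7 and 5.61 CPM (log2 -0.89 ± 0.26, FDR 0.02181), and Stx2 from 22.1, 25.6 and 16.8 CPM to 10.1, 12.5 and 10.2 CPM (log2 -0.78 ± 0.21, FDR 0.01382). Stx17 changed by -0.64 ± 0.20 and Stx6 by -0.48 ± 0.19. No 12 h library of these 4 genes reached the lowest naive library. Snap23 (-0.24 ± 0.18), Vamp2 (0.34 ± 0.21), Cplx1 (0.20 ± 0.16), Cplx2 (0.04 ± 0.19), Syt1 (0.44 ± 0.21), Syt2 (0.16 ± 0.27), Syt4 (0.04 ± 0.21), Syt7 (0.30 ± 0.22) and Syt11 (-0.05 ± 0.14) were not called. Satellite glia markers stood at 8738 to 9161 CPM at 12 h against 10889 to 13327 CPM in naive libraries, and their part in these changes was not tested. Stx6 lost its call without the 12 h library 1 (FDR 0.188) or 2 (0.15) or naive library 2 (0.265) or 3 (0.114), Vamp1 without the 12 h library 2 (0.19) or naive library 1 (0.107) or 2 (0.155), Stx17 without naive library 2 (0.119), and Stx8 without naive library 3 (0.107).

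The neuronal and glial responses were then compared directly, as the Isl1 IP change minus the Dhh IP change in 1 model of 9934 genes. At 12 h 7 of 32 members differed, 3 with a higher and 4 with a lower value in Isl1, beside 25.7% of all genes. Stx8 (0.89 ± 0.27), Vamp8 (0.88 ± 0.32) and Stx2 (0.85 ± 0.20) had the higher Isl1 value, and Stx11 (-1.10 ± 0.29), Stx3 (-0.9985 ± 0.27), Stx5a (-0.60 ± 0.15) and Snap25 (-0.43 ± 0.14) the lower. At 4 h Vamp3 differed (-0.77 ± 0.20, FDR 0.09745), beside 0.906% of all genes, and at 24 h Stx11 differed in the other direction from 12 h (1.03 ± 0.31, FDR 0.09827), beside 2.87%. Stx11 thus peaked in Dhh at 12 h and was highest in Isl1 at 24 h. Over all genes 51.61% of the 12 h calls were higher in Isl1, and 39.27% with DESeq2 size factors or 40.54% with DESeq2. The 7 calls became 11 without the Dhh 12 h library 1 and 12 without library 3.

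**Figure D5:**
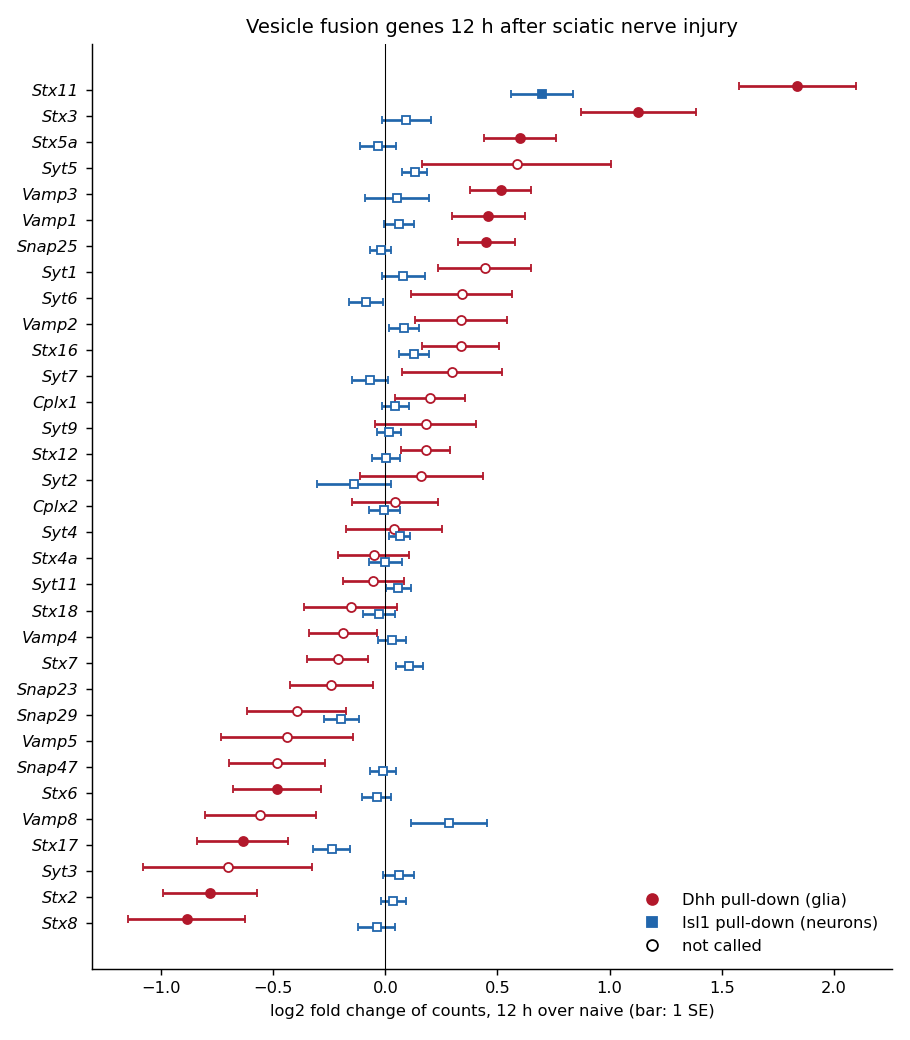
Log2 change at 12 h after injury of fusion genes tested in Dhh IP (circles), with the Isl1 IP change of the same gene (squares) where it was tested. Bars are standard errors and filled symbols have an FDR below 0.1. Stx11 is filled in both, at 1.84 in Dhh and 0.70 in Isl1, and Stx8 is lowest in Dhh at -0.89.

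Several of these differences rested on single libraries. Vamp8 at 12 h lost its call without the Isl1 12 h library 1 (FDR 0.101) or 3 (0.133) or the naive library 1 of Isl1 (0.123) or 3 of Dhh (0.145). Vamp3 at 4 h lost it without any of 10 of the 12 libraries (FDR from 0.113 to 0.313), all except Isl1 4 h library 1 and Dhh naive library 3. Stx11 at 24 h lost it without any of the 3 Isl1 24 h libraries, the 3 Isl1 naive libraries, Dhh 24 h library 1 or Dhh naive library 3 (FDR from 0.113 to 0.236).

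Genes that serve the same step but fall outside the families were read from a list of 92 other fusion genes, with SNARE regulators, synaptic vesicle and active zone proteins, further SNAREs and the exocyst, which tethers vesicles to the plasma membrane. In Dhh against Isl1, 51 of 70 tested were lower and 13 higher, which is 91.4% and near the 84.8% of all genes. Values in this comparison included Nsf, the ATPase that takes spent SNARE bundles apart, at log2 -3.24. Rab27b, a GTPase of secretory granules, had -4.03 and Bsn (bassoon), an active zone scaffold, -3.48. In Runx3 against Isl1, 20 were higher and 23 lower, which is 61.4% and near the 55.7% of all genes, with Rab27b at -3.18, Rab3d at -2.29, Unc13c at -2.05 and Synpr (synaptoporin), a vesicle membrane protein, at -3.68. Isl1 against Adv called 0 of 70 in edgeR, with 12 at an unadjusted p under 0.05. In Isl1 against PGK, 5 were higher and 4 lower, which is 12.9% beside 20.2% of all genes, with Stxbp3a at -1.50, Syngr2 at -0.84, Llgl1 at -0.53 and Sytl2 at 0.54. Against their own input the list had 20 higher and 6 lower in Isl1, 26 and 9 in Adv, 32 and 24 in Runx3, 14 and 44 in Dhh and 6 and 5 in PGK, of 69 tested. These are 37.7%, 50.7%, 81.2%, 84.1% and 15.9%, near the 32%, 47.4%, 73.4%, 85.1% and 19% of all genes.

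The same list was read after injury. In Isl1 IP, of 78 tested, 1 was called higher at 4 h (Unc13a, a vesicle priming factor, 0.34), 1 higher and 3 lower at 12 h (Sypl 0.28, Syn3 -0.46, Rab27a -0.41 and Unc13c -0.39), and 4 higher and 3 lower at 24 h. The shares were 1.28%, 5.13% and 8.97%, beside 3.13%, 5.14% and 18.6% of all genes. The 24 h calls with the smallest p were Sytl2 (0.32), Bnip1 (-0.31), Exoc5 (0.26) and Sytl3 (0.60), of which the synaptotagmin-like Sytl2 and Sytl3 bind Rab27. In input, of 79 tested, 1 was lower at 4 h, 1 was higher at 12 h (Exoc5, 0.26), and at 24 h Sytl3 (0.52) was higher and Rab27b (-0.30) lower, which is 1.27%, 1.27% and 2.53% beside 1.28%, 4.48% and 8.42% of all genes. In Dhh IP, of 75 tested, edgeR called 0 at 4 h (7 at an unadjusted p under 0.05), 12 higher and 8 lower at 12 h, and 1 lower at 24 h (Sv2b, -0.65). The 12 h share was 26.7% beside 32.9% of all genes. Among the 12 h calls were Stxbp4 (-1.18), Dnajc5 (0.60) and Rab3a (1.02). Against the Dhh response at 12 h, 7 of 74 had a higher and 12 a lower value in Isl1, among them Sytl2 (-0.59), Dnajc5 (-0.55), Stxbp4 (0.81) and Vps33a (0.41). The Isl1 IP response minus the input response called 0 of 79 at 4, 12 and 24 h in edgeR, with 1, 2 and 0 at an unadjusted p under 0.05. Against the Dhh response edgeR called 0 of 74 at 4 h, with 4 at an unadjusted p under 0.05, and 3 at 24 h, namely Sv2b (0.53), Cadps2 (0.62) and Rab3d (-0.75).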

How the data were processed

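RNA of 27 groups (77 labelled samples) was sequenced, and 76 libraries had a column of counts; no count column was matched to naive Dhh IP replicate 2. The authors deposited gene counts, made per their methods from paired 50-base reads with STAR on mm10 and HTSeq with RefSeq genes, uniquely mapped reads only. The submitters' notes also name mm9 and CASAVA 1.8.2, and no source used here states the strand setting of the counting. The deposited tables also hold the authors' normalized counts, which were not used. FPKM was computed here, as CPM over the RefSeq transcript length in kilobases. Gene symbols stored as dates were set back to symbols. Libraries held 29710143 to 54088821 counts.

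Counts were tested with edgeR 4.0.16 (R 4.3.3), by the quasi-likelihood test with TMM scaling, over all groups of a table and genes with a mean FPKM above 1. P-values were Benjamini-Hochberg adjusted over all genes tested, and an FDR below 0.1 was called. Libraries of IP and input were fitted together for their contrasts. CPM is per 1000000 counts of a library without TMM scaling, so folds read from CPM can differ from the fitted ones. The tests were tested on simulated data first. Promoters were taken from RefSeq (GRCm38.p6) with a script in Python 3.11.15.

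The members and gene lists were chosen with earlier results of these data known. Named were a fixed set of core genes (Syt1, Syt2, Syt4, Syt7, Syt11, Stx1a, Snap25, Snap23, Vamp1, Vamp2, Vamp3, Cplx1 and Cplx2) where listed, up to 6 called members per direction with the largest change, and up to 4 other fusion genes per comparison with the smallest p. Others were named after their values were seen, and the values of a few genes are not reported here. Replicate numbers of the labels were checked as pairs by the correlation of deviations from group means. All 9 pairs of Isl1 course IP and input deviated together (r from 0.2332 to 0.7068), as did naive IP and input of Isl1 and PGK, while over the 14 naive pairs 10 had r above 0.1. No libraries were identical. Alternatives were DESeq2 1.42.0, its size factors, no level filter, only the groups compared, a replicate block and leaving out each library.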

Additional observations from a re-analysis of the deposited data

Results flagged for a closer look

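The responses of the neuronal and glial pull-downs differed by a test of the difference itself for 9 member and time combinations, each given as the Isl1 IP log2 change minus the Dhh IP log2 change (edgeR interaction term). At 4 h Vamp3 differed by -0.77. At 12 h Stx11 differed by -1.10, Stx3 by -0.9985, Stx5a by -0.60 and Snap25 by -0.43, and Stx8 by 0.89, Vamp8 by 0.88 and Stx2 by 0.85. At 24 h Stx11 differed by 1.03. The lines, their Cre drivers and their tables differ between the arms, and the part of each was not tested.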

How the results depend on the processing

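Counts of called members are given here by comparison. Under the DESeq2 test they became 15 for Isl1 against PGK (9 in edgeR), 5 for PGK IP against input (3), 2 for Isl1 IP at 4 h (1), 2 at 12 h (1) and 7 at 24 h (4), 2 for Dhh IP at 4 h (0) and 2 for the Isl1 minus Dhh response at 4 h (1). With DESeq2 size factors the single Isl1 input call at 12 h became 0. Without the level filter PGK IP against input had 5. With only the groups compared, Isl1 IP had 5 at 4 h and 4 at 12 h, Isl1 input 1 at 4 h and 2 at 12 h, and Dhh IP 2 at 4 h. With the replicate block PGK IP against input had 11, Isl1 IP at 4 h had 2 and Isl1 input at 12 h had 0, and the other counts stayed within 1.5 times. Across injury times, same-numbered libraries had r above 0.1 in 8 of 18 pairs of Isl1 IP, where r ran from -0.1576 to 0.2665. The share was 2 of 12 in Isl1 input and 2 of 15 in Dhh IP. Isl1 input held 2 libraries at 4, 12 and 24 h, so both gave the same r between those times. The 2 of 12 are therefore 1 value, 0.1344 between 4 and 24 h. Libraries of different numbers were not compared. Leaving out 1 library gave 5 to 12 for Isl1 against PGK, 6 to 17 for Isl1 IP against input and 1 to 8 for PGK. It gave 0 to 1, 0 to 1 and 3 to 11 for Isl1 IP at 4, 12 and 24 h, and 0 to 0 for Isl1 input at 12 h. For the Isl1 minus Dhh response it gave 0 to 2, 6 to 12 and 0 to 1. Of the 81 named member results 0 reversed, and no scaling moved the median of all genes by over 0.1 (log2). The cause of these shifts was not tested. Members near 1 FPKM, such as Snap23 in neurons, rest on few counts.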

Other observations

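Syt2, Snap47 and Stx5a were members whose replicates differed widely. The highest over the lowest CPM within a naive IP group, as the median over the lines, was 2.67 for Syt2, 2.29 for Snap47 and 2.1 for Stx5a. In the Isl1 pull-down Syt2 was at 23.7, 88.1 and 79.1 CPM, with library 1 low.

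The naive Dhh pull-downs of the line comparison and of the injury course stood apart. Vamp5 gave 95.8 and 78.5 CPM in the first and 10.4, 7.83 and 8.47 CPM in the second. Vamp8 gave 125 and 103 CPM against 18.2, 14.5 and 23.3 CPM, and Snap23 gave 25.9 and 30.1 CPM against 85.9, 96.5 and 103 CPM. The tables were processed separately and no test was made across them.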
